A study of Mus musculus with 4 samples.

Results

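The Hox genes of the mouse lie in 4 clusters, HoxA on chromosome 6, HoxB on chromosome 11, HoxC on chromosome 15 and HoxD on chromosome 2. Members were taken by name, as every protein-coding gene of the GENCODE vM21 annotation whose symbol is Hoxa, Hoxb, Hoxc or Hoxd followed by digits. This gave 39 genes, 11 in HoxA, 10 in HoxB, 9 in HoxC and 9 in HoxD, of 21755 protein-coding genes on the autosomes and X. Replication timing was measured by population-based Repli-seq in diploid F121-9 cells, a hybrid cas/129 line of mouse embryonic stem cells (mESCs) grown in N2B27 medium with 2i and LIF, which keeps the cells undifferentiated. All libraries come from this untreated line, and they were made from DNA labeled with BrdU, a nucleotide analog built into newly made DNA, in cells sorted into early S-phase (2 libraries) and late S-phase (2 libraries). The deposited profile gives 1 value per 50 kb bin, here called RT, in which early reads are divided by late reads, each scaled to the size of its library, and the ratio is given as log2. A bin with RT above 0 is called early here. The libraries are of DNA, so the expression of stem cell markers could not be examined.

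Hox genes encode homeodomain transcription factors that give each level of the body axis its identity. Their order along the chromosome mirrors the order in which they are switched on, from the genes of low number, which act in the hindbrain, to those of high number, which act in the tail, limb ends and genital bud. Members of different clusters that descend from the same ancestral gene form a paralog group and carry the same number. In mESCs the clusters are held silent by Polycomb proteins while their promoters also carry an activating histone mark, and retinoic acid can switch them on. Early replication in mammalian cells goes mostly with gene-rich, accessible chromatin.

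Every Hox gene had a value, and all 39 starts lay in bins with RT above 0, compared with 72.9% of the 21666 protein-coding gene starts with a value. The genes share few bins, however. Their starts fall in 13 bins, all 13 with RT above 0, against 69.2% of the bins that hold any protein-coding gene start and 40.9% of all 51153 bins of the autosomes and X. Members in the same bin have the same value by construction, so 13 is the number of separate measurements behind these genes, and neighboring bins are not independent either.

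Hox genes were early but not among the earliest. Their median RT was 2.93, with quartiles of 2.39 and 3.08, whereas all gene starts had a median of 2.27 with quartiles of -0.28 and 3.31. The Hox median was above 62.3% of the gene starts and above 87.3% of all bins. RT was at or above 2 for 35 genes (53.8% of all gene starts) and at or above 3 for 19 genes (35.8%). By bin, 12, 11 and 5 of the 13 bins were at or above 1, 2 and 3, which 31.9%, 22.8% and 11.8% of all bins reached. The lower end of the Hox distribution was set by HoxD, which had 5 of 9 genes at or above 2 and 0 of 9 at or above 3. Hoxd1 was the lowest at 0.93, and it alone was below 1 (64.3% of all gene starts were at or above 1).

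**Figure D1:**
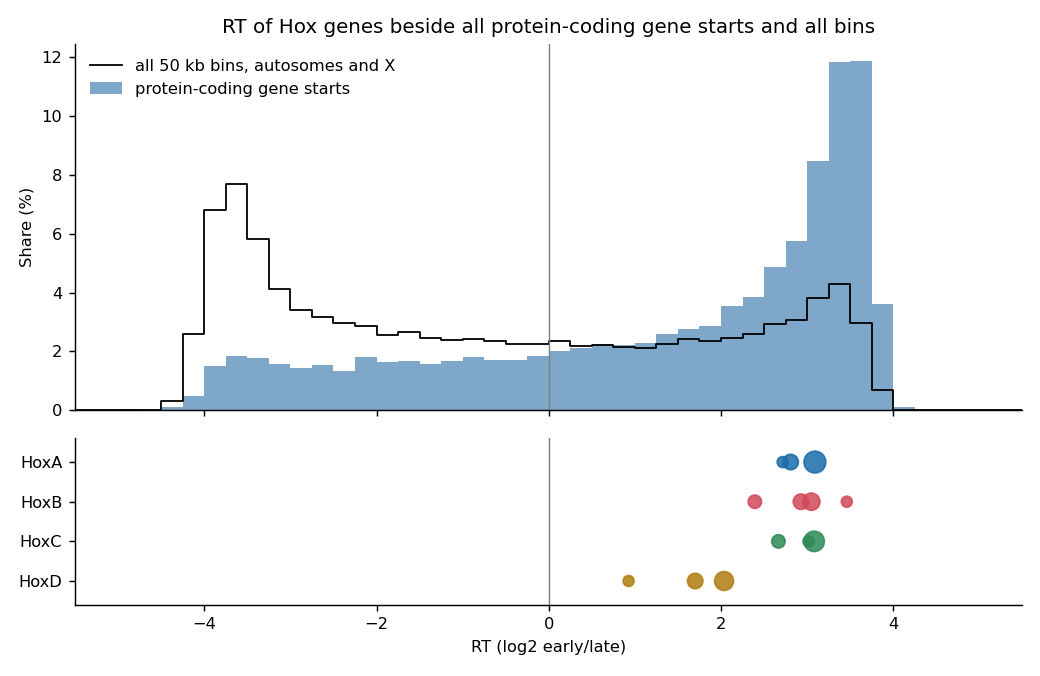
The upper panel plots the share of bins (line) and of protein-coding gene starts (bars) in intervals of RT (log2 early/late), and the lower panel plots each bin with a Hox gene start as a circle whose area grows with the number of Hox genes in it. All circles lie to the right of RT 0, and those of HoxD lie to the left of those of HoxA, HoxB and HoxC.

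No error between replicates can be given, because the profile has 1 value per bin and none per library, and the number of reads behind a bin is unknown. Bin to bin noise was measured instead, from the deviation of each bin from its neighbors in segments of constant RT (7337 bins). The noise SD was 0.16 log2 per bin, which gives 0.22 for the difference of 2 bins. Differences are set beside this SD as a description. It leaves out variation between cultures, and it was measured on flat segments, whereas 0 of the 14 bins that the clusters span lay in a constant timing region (14.3% of all bins did).

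HoxA, on the minus strand, is 105 kb long and spans 3 bins of chromosome 6 from 52150001 to 52300000 (mm10). Hoxa2 and Hoxa4 shared a bin with an RT of 2.81. Hoxa3, Hoxa5, Hoxa6, Hoxa7, Hoxa9, Hoxa10 and Hoxa11 shared the middle bin, at 3.09, and Hoxa13, a gene of the limb ends, lay in a bin at 2.72. The rise and the fall around the middle bin were 1.27 and 1.69 times the SD of a difference, so HoxA was close to flat at this resolution. The annotated start of Hoxa3 is that of its longest transcript and lies beyond the start of Hoxa4, which is why both are out of order here.

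HoxB is the longest cluster, at chr11:96194316-96368256 on the plus strand, 174 kb. RT was 3.46 in the bin of Hoxb13, 3.16 in the next bin, which holds no Hox gene start, and 3.05 in the bin of Hoxb6, Hoxb7, Hoxb8 and Hoxb9. It was 2.93 for Hoxb3, Hoxb4 and Hoxb5, and 2.39 for Hoxb1 and Hoxb2, which are hindbrain genes. RT thus declined from Hoxb13 to Hoxb1, by 1.07 in all, or 4.83 times the SD of a difference. The steps before the last all went down, by 1.35, 0.51 and 0.54 times that SD, so a decline in each step was not resolved from noise. In the last step, the largest, RT fell by 0.54, or 2.42 times that SD.

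HoxC lies at chr15:102921103-103036852 on the plus strand, 116 kb, and has no gene of groups 1 to 3. Hoxc12 and Hoxc13 had an RT of 2.67, the bin of Hoxc5, Hoxc6, Hoxc8, Hoxc9, Hoxc10 and Hoxc11 had 3.08, and that of Hoxc4 had 3.02. The step from 2.67 to 3.08 was 1.87 times the SD of a difference. The remaining step was 0.297 times.

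HoxD lies at chr2:74668310-74765142 on the plus strand, 96.8 kb. Hoxd9, Hoxd10, Hoxd11, Hoxd12 and Hoxd13, the genes best known for patterning the limb, had an RT of 2.04. Hoxd3, Hoxd4 and Hoxd8 had 1.70. Hoxd1, which stands apart from the other genes at the end of the cluster, had 0.93. RT fell by 0.34 from the first of these bins to the second, 1.52 times the SD of a difference, and fell by 0.77 from there to the bin of Hoxd1, 3.49 times. RT therefore ran from high to low toward group 1 in HoxD as in HoxB, at a lower level.

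HoxA, HoxB and HoxC had nearly the same median RT over their genes, 3.09, 2.99 and 3.08, and differed from each other by at most 0.10, which is 0.461 times the SD of a difference. HoxD had a median of 2.04. It was lower than HoxA by 1.05, than HoxB by 0.95 and than HoxC by 1.05, from 4.31 to 4.77 times the SD of a difference, and the bins of HoxD did not overlap with those of any other cluster. The chromosomes do not follow this order. Median RT over all bins was -1.21 on chromosome 6, 1.40 on chromosome 11, -0.88 on chromosome 15 and -0.45 on chromosome 2, so that the HoxA genes were 4.30 above the median of their chromosome, those of HoxC 3.97, those of HoxD 2.48 and those of HoxB 1.59.

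Within paralog groups HoxD was the lowest wherever it has a member, while the order of the other clusters varied. Of the 13 groups, 9 have a member in HoxD, and in 9 of 9 the HoxD gene had the lowest RT. In group 1 Hoxb1 had an RT of 2.39 and Hoxd1 of 0.93. In group 13 Hoxb13 had 3.46, Hoxa13 2.72, Hoxc13 2.67 and Hoxd13 2.04, a spread of 1.43 or 6.44 times the SD of a difference. Groups 5, 6 and 7, which HoxD lacks, spread by 0.16, 0.04 and 0.04, less than the SD of a difference. Group 2, with Hoxa2 at 2.81 and Hoxb2 at 2.39, spread by 0.42, or 1.88 times. Since the genes of HoxD lie in 3 bins, these 9 groups are no separate tests of the difference.

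**Figure D2:**
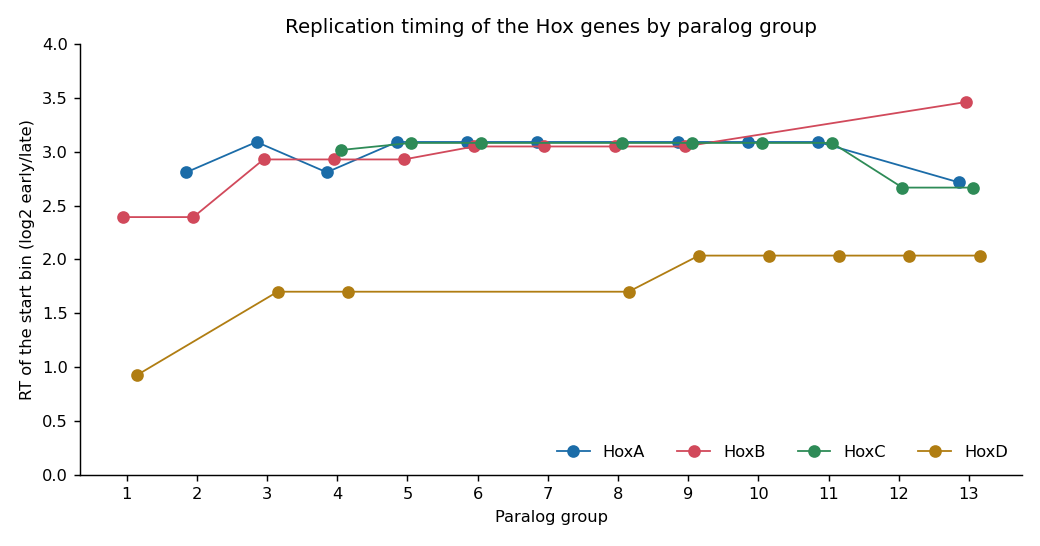
RT (log2 early/late) of the bin of each Hox gene start described here is plotted against paralog group, with 1 line per cluster. The HoxD line runs from 0.93 at group 1 to 2.04 at group 13 and lies below the lines of the other clusters wherever it has a member.

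Groups 1 to 4 had a lower median RT than groups 9 to 13 in each cluster, but most of these differences were small. The median was 2.81 against 3.09 in HoxA, 2.66 against 3.25 in HoxB, 3.02 against 3.08 in HoxC and 1.70 against 2.04 in HoxD. The difference of -0.07 in HoxC, where only Hoxc4 stands for the low groups, was within the noise. In HoxA and HoxC the gene of group 13 was itself lower than those of the middle of the cluster. RT thus went down in every step toward group 1 in HoxB and HoxD and not in HoxA and HoxC. Steps of HoxB were as small as 0.51 times the SD of a difference, so this contrast was not resolved from noise step by step.

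The clusters also hold microRNAs, which repress Hox and other transcripts and occupy corresponding positions in different clusters. Their mature sequences from RefSeq (GRCm38.p6) are shown because the shared seeds (bases 2 to 8, in capitals) pair loci of different clusters.
miR-196b-5p, HoxA: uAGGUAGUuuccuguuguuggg
miR-196a-5p, HoxB and HoxC: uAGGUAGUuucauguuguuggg
miR-10a-5p, HoxB: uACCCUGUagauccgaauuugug
miR-10b-5p, HoxD: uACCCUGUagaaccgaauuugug
miR-615-3p, HoxC: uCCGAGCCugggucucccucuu
The seed of the miR-196 group occurs at 3 loci. Mir196b had an RT of 3.09 in HoxA, Mir196a-1 of 3.05 in HoxB and Mir196a-2 of 3.08 in HoxC, so these loci differed by less than the noise. The seed of the miR-10 group occurs at 2 loci, Mir10a beside Hoxb4 with an RT of 2.93 and Mir10b within the annotated span of Hoxd4 with an RT of 1.70. Mir615, inside Hoxc5, had 3.02. As with the genes, each microRNA has the value of its bin.

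Beyond the clusters the surroundings differed more than the clusters did. The early run of consecutive bins with RT above 0 that holds the cluster was 1850 kb long for HoxA, 5700 kb for HoxB, 1850 kb for HoxC and 350 kb for HoxD. Over the genome there were 991 such runs with a median of 600 kb, and 340 of them (34.3%) were no longer than that of HoxD. Among these 340 runs, whose median length was 150 kb, 11 reached an RT of 2.04 or more, that of HoxD included. The length of the HoxD run depends on the threshold, and was 700 kb with the threshold at the median of all bins and 150 kb at RT 1.

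HoxD was a peak between flanks that went below 0. Its run covers 7 bins from 74500001 to 74850000, with RT of 0.09, 0.57 and 1.31 ahead of the cluster, 2.04, 1.70 and 0.93 in it and 0.31 after it. RT was at or under 0 from 50 kb beyond the cluster on the group 1 side and from 150 kb on the group 13 side. It went down to -1.37 at chr2:75200001-75250000 on the group 1 side and to -1.49 at chr2:74250001-74300000 on the group 13 side, and rose again beyond both. These lows were above 46.3% and 45.1% of all bins, so they were near the middle of the genome and not among its latest bins. The closest bins with a higher RT than the peak lay 850 kb and 750 kb away. Measured from the shallower of the lows, the peak stood out by 3.41, or 15.4 times the SD of a difference.

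**Figure D3:**
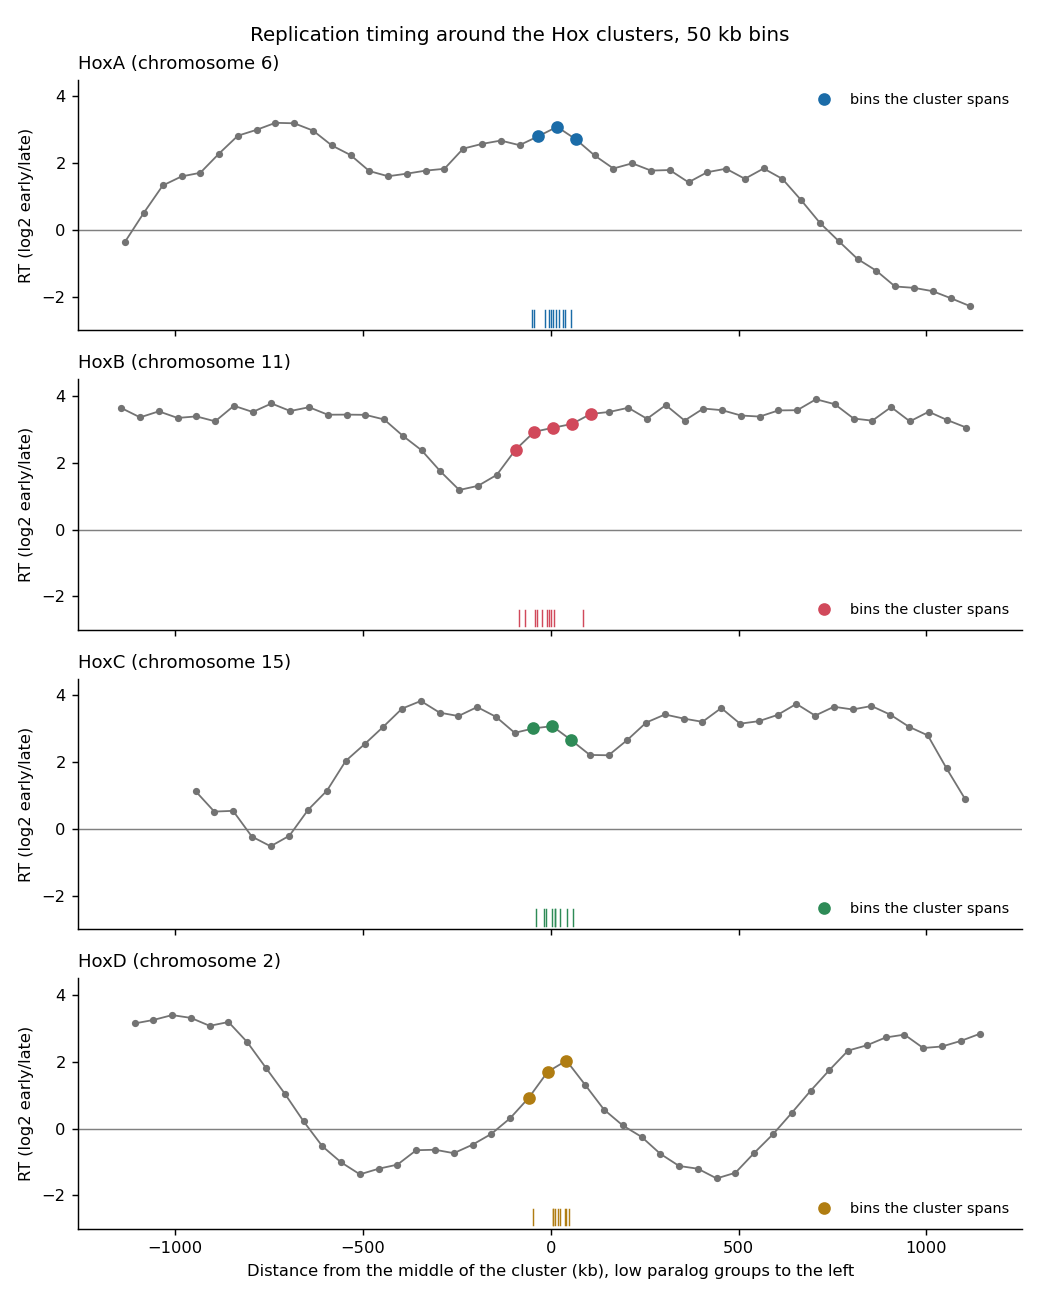
RT (log2 early/late) of each 50 kb bin around the clusters is plotted against distance from the middle of the cluster in kb, with low paralog groups to the left, large points for the bins the cluster spans and ticks for Hox gene starts. HoxD forms a peak at 2.04 between lows of -1.37 and -1.49, while HoxB and HoxC join long early stretches.

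The other clusters stood out less. By the same measure HoxA stood out by 1.48, or 6.69 times the SD of a difference, with a higher bin 700 kb away on the side of group 1. HoxC stood out by 0.20, or 0.906 times, and HoxB by 0, as RT kept rising past Hoxb13. The share of early bins over the cluster and 1 Mb on each side was 36 of 43 bins (83.7%) for HoxA, 45 of 45 (100%) for HoxB, 38 of 41 (92.7%) for HoxC and 25 of 43 (58.1%) for HoxD. The exact 95% binomial intervals were 69.3% to 93.2% for HoxA, 92.1% to 100% for HoxB, 80.1% to 98.5% for HoxC and 42.1% to 73.0% for HoxD. The interval of HoxD overlapped with that of HoxA and not with those of HoxB and HoxC. These intervals cover the counting of bins only, and neighboring bins are not independent.

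HoxA had unequal sides. The 1 Mb on the side of the low groups had a mean RT of 2.29 with 20 of 20 bins early, and the 1 Mb next to Hoxa13 had a mean of 0.55 with 13 of 20 early, reaching values below 0 at 650 kb from the cluster and -2.05 near the end of that window. HoxC was early on the side of group 13, with a mean of 3.14, and on the side of group 1 had a mean of 1.94 over the 18 bins with a value, with a low of -0.52. HoxB was early throughout, with means of 2.99 next to Hoxb1 and 3.48 next to Hoxb13. Its decline toward Hoxb1 led into a dip that reached 1.18 at chr11:96500001-96550000, 100 kb from the cluster and inside Skap1, a gene of T cell adhesion, before RT rose again to 3.43 at Snx11. HoxD had means of 0.72 next to Hoxd1 and 0.68 next to Hoxd13.

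The lows beside HoxD lay in long stretches without protein-coding genes. Between Mtx2, which encodes a protein of mitochondrial import, and Hnrnpa3, an RNA-binding protein gene, 781 kb hold no protein-coding gene. Of the 15 bins inside this stretch, 9 were at or under 0, a share close to that of the genome, where 40.9% of bins were above 0. Between Atp5g3, a gene of the ATP synthase, and Lnpk, which shapes the endoplasmic reticulum, 609 kb are free of protein-coding genes, and 8 of 11 bins were at or under 0. These stretches are known as the regulatory landscapes of HoxD, with the limb enhancers. The longest gene-free stretch within 1 Mb was 283 kb at HoxA, 111.5 kb at HoxB and 199 kb at HoxC. Those at HoxA and HoxB were cut off by the edge of the window, so they are longer than measured here, by an amount not determined. HoxD had 3 and 4 protein-coding gene starts in its flanks of 1 Mb, HoxA 5 and 5, HoxC 16 and 33, and HoxB 21 and 21. The flanks of HoxB and HoxC had more gene starts than those of HoxA and HoxD. In the same order of flanks, mean RT was 0.72 and 0.68 at HoxD and 2.29 and 0.55 at HoxA. It was 1.94 and 3.14 at HoxC and 2.99 and 3.48 at HoxB. The part of gene density in the RT of the clusters was not tested.

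Mtx2 and Lnpk, the nearest protein-coding genes that share no bin with HoxD, had lower RT than any HoxD gene. Mtx2 had 0.31 and Lnpk 0.57, and they are also the genes closest to the first bins at or under 0. Evx2, a homeobox gene just past Hoxd13, shares the bin of Hoxd13 and its RT of 2.04, and its counterpart Evx1, past Hoxa13, had 2.23. On the other side of HoxA, Skap2 had 2.58 and Snx10 3.20, and past Evx1, Hibadh, an enzyme gene of valine breakdown, had 1.73. Around HoxB, Skap1 had 1.31, whereas Ttll6 and Calcoco2, which share a bin, had 3.52. Around HoxC, Smug1, a DNA repair gene, had 3.65, Cbx5 3.38, Calcoco1 3.19 and Atp5g2 3.43. Apart from Skap1, the nearest genes of HoxB and HoxC thus lay above the medians of their clusters. At the other borders of the early runs, the genes closest to the first bin at or under 0 were Nfe2l3 (3.001) and Jazf1 (-1.22) for HoxA, Krt12 and Utp18 (2.21) for HoxB, and Mucl1 (-0.22) and Krt72 (-0.41) for HoxC. The bin of Krt12 had an RT of -7.11e-05, at the threshold itself, and the run of HoxB was 5550 kb long with the threshold at RT 1 and 5850 kb with it at the median of all bins.

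The clusters arose by duplication of a chromosomal segment, and other gene families have members beside several clusters. These families were chosen after their values were seen. Among them the Nfe2 family of stress and blood transcription factors was early at each cluster, with Nfe2l3 at 3.001 beside HoxA, Nfe2l1 at 3.44 beside HoxB, Nfe2 at 3.49 beside HoxC and Nfe2l2 at 3.40 beside HoxD. Hnrnpa2b1, Hnrnpa1 and Hnrnpa3 had 3.21, 3.38 and 3.31 beside HoxA, HoxC and HoxD. Each starts in the bin next to that of the Nfe2 family gene of the same cluster, so these are not separate loci. Nfe2l2 and Hnrnpa3 lie on the same side of HoxD, beyond the low next to Hoxd1. On its other side Atp5g3 had 2.33, compared with 3.65 for Atp5g1 beside HoxB and 3.43 for Atp5g2 beside HoxC.

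**Figure D4:**
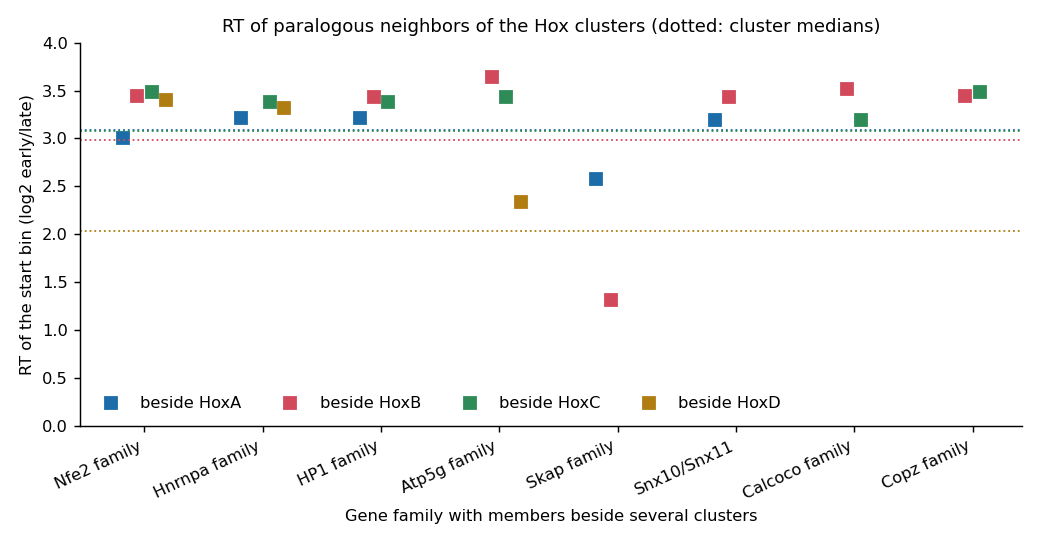
RT (log2 early/late) of gene starts is plotted for families with members beside several Hox clusters, with 1 square per gene in the color of its cluster and dotted lines at the cluster medians. Nfe2l2 and Hnrnpa3 beside HoxD, at 3.40 and 3.31, lie above the HoxD median of 2.04.

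Most Hox bins were rich in CpG. The 14 bins that the clusters span had a median GC content of 48.1%, compared with 41.2% over the 51148 bins with assembled sequence (mm10), and the median observed over expected CpG was 0.359 compared with 0.177. The middle bin of HoxA holds 1715 CpG, and 1 bin of the genome holds more. The bin of Hoxd9 to Hoxd13 holds 1674, which 3 bins exceed, and its observed over expected CpG of 0.548 is exceeded in 2 bins. Of the 14 Hox bins, 9 are among the 512 bins (1%) with the highest observed over expected CpG. The other Hox bins were less far from the genome, as that of Hoxd1, whose observed over expected CpG of 0.265 was above 93.0% of all bins and whose GC content of 43.7% was above 70.1%. RT of those 512 bins had a median of 2.48 with quartiles of 1.06 and 3.31, and in 41.6% of them it was lower than the 2.04 of HoxD, compared with 77.5% of all bins.

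Median CpG per bin was 1268 in HoxD, 1152 in HoxA, 885 in HoxC and 766 in HoxB. Median RT over the genes was 2.04, 3.09, 3.08 and 2.99 in the same order, and the last 3 of these were nearly equal. Of the 5 bins of HoxB, 4 hold a Hox gene start. The part of CpG in the RT of the clusters was not tested. The bases before the starts of Hoxd13 and Hoxd1 are shown because these genes stand at both ends of the decline in HoxD. They are the 250 bases upstream of the RefSeq starts (GRCm38.p6), with each CpG in capitals.
Hoxd13, chr2:74667975-74668224, plus strand: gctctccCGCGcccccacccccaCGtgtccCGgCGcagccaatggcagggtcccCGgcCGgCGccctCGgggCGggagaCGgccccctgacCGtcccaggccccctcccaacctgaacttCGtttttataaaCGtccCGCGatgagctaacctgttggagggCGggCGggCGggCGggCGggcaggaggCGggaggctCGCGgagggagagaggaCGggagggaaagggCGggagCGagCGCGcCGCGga
Hoxd1, chr2:74762730-74762979, plus strand: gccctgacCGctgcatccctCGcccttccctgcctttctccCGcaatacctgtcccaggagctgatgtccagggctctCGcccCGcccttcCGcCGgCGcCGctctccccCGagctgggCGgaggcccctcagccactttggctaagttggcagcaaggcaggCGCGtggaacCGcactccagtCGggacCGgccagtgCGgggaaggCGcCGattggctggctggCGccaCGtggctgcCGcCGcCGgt
The Hoxd13 sequence holds 31 CpG and that of Hoxd1 24, so both are dense in CpG. Their bins differed in RT by 1.11. Promoters were matched for 22 of the 39 Hox genes. Their 24 promoters, most of them in HoxA and HoxD, had a median of 12.5 CpG in 250 bases, from 2 to 35, compared with 6 over the 32619 promoters of the table. All other HoxD promoters held fewer than those shown, down to 3 for Hoxd4 and 2 for a promoter of Hoxd11.

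Most Hox bins were poor in repeats, with a median of 17.02% repeat-masked bases compared with 32.0% over all bins. The bin of Hoxa3 to Hoxa11 had 11.97% and that of Hoxd3, Hoxd4 and Hoxd8 had 13.2%. Some bins at cluster ends were closer to the genome, with 31.5% for Hoxb1 and Hoxb2, 28.3% for Hoxd1, 26.4% for Hoxa13 and 24.5% for Hoxb13. The bin of HoxB without a Hox gene start had the most, 43.0%, and an RT of 3.16. Over the genome, 2107 bins (4.12%) had 17.02% or less, and these had a median RT of 0.59 with 59.1% above 0.

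**Figure D5:**
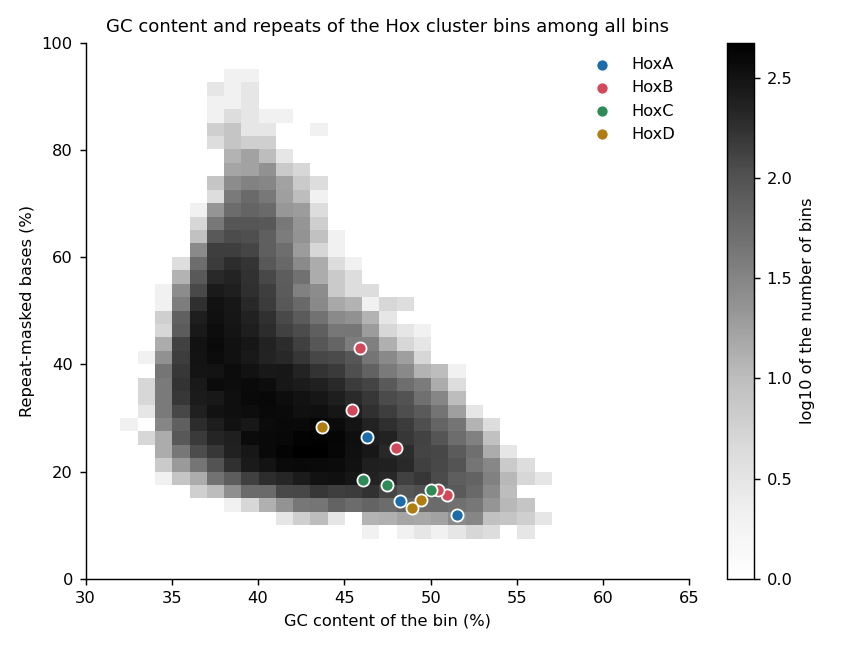
The share of repeat-masked bases (%) is plotted against GC content (%) for each Hox cluster bin (colored points) over all 50 kb bins (gray scale, log10 of the number of bins). Most Hox bins lie in the lower right, at high GC content and few repeats, and the HoxB bin at 43.0% repeats lies apart.

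Retinoic acid acts on Hox genes through response elements, among which the DR5 element, a pair of direct repeats with a spacer of 5 bases, is the classical form. A search of both strands for the DR5 consensus found 6 matches in 5 of the 14 Hox bins. Of these, 5 are shown with the repeats in capitals, 5′ to 3′ (mm10), because 4 of the 5 begin with the same 6 bases and lie near corresponding genes.
chr6:52175533-52175549, minus strand, HoxA: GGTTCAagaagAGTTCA
chr11:96212029-96212045, minus strand, HoxB: AGGTCAgggaaGGGTCA
chr11:96341236-96341252, plus strand, HoxB: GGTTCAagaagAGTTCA
chr11:96372776-96372792, plus strand, HoxB: GGTTCAtagagAGTTCA
chr2:74741540-74741556, plus strand, HoxD: GGTTCAagcagAGTTCA
A match lies 4.53 kb past the end of Hoxb1, in the bin with RT of 2.39. Matches also lie in introns of Hoxa3, Hoxb3 and Hoxd3, in bins with RT of 2.81, 2.93 and 1.70, and those of Hoxa3 and Hoxb3 are identical. The remaining one of those shown is intergenic, 14.6 kb past the end of Hoxb13, in the HoxB bin without a Hox gene start. HoxC held 0 matches. Of all bins 15.6% held a match and of the bins with RT above 0 17.9%. A match is a description of the letters and does not show that a receptor binds there.

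Genes that act on or with Hox genes were mostly early as well. All 15 Polycomb genes of the list, which encode repressors of the clusters, had RT above 0, with a median of 3.001, from 0.24 for Bmi1 to 3.89 for Cbx7. The 7 Trithorax genes, whose products counter Polycomb, were all above 0, with a median of 3.32, from 3.07 for Rbbp5 to 3.66 for Kmt2a. Of the TALE cofactors, homeodomain proteins that bind DNA together with Hox proteins, the highest was Pbx4 at 4.04 and the lowest Meis1 at -1.62, with a median of 2.70. The counts above 0 stand beside 72.9% for all gene starts.

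Retinoic acid genes had a median below that of the Hox genes. Of the receptors and enzymes on the list, 9 of 10 were above 0 (72.9% of all gene starts were), with a median of 1.99. Rara had the highest RT, 3.72, and Rarb, a receptor gene that retinoic acid itself induces, the lowest, -2.81. The ParaHox genes, the sister group of the Hox genes, were above 0 in 6 of 6, with a median of 2.22, from 1.91 for Pdx1, the pancreas regulator, to 3.16 for Cdx4, which acts upstream of Hox genes. Their median was close to the 2.27 of all gene starts. Some genes of a list share a bin and so its value. Cyp26a1 and Cyp26c1 share a bin at 1.99, and Cbx2 and Cbx8 share one at 3.001, which are the medians of their lists. Lists of this size are a description, and nothing here was tested.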

How the data were processed

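Population-based Repli-seq of diploid F121-9 mESCs comprised 4 libraries, 2 of each S-phase fraction. The authors converted reads to RPM and deposited log2 values of early over late, 1 per 50 kb bin. Mapping to mm10 is named in the submitters' processing notes, with Bowtie2, SAMtools and bedtools. How replicates were combined, and any smoothing or filter of this profile, is not given in the sources used here. Smoothing would lower the noise SD and flatten steps between neighboring bins.

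RT of a gene is that of the bin with its annotated start (GENCODE vM21). The 273 bins of chromosome Y were left out. A constant timing region was at least 10 bins (500 kb) with a slope at or under 2.5 log2 per Mb over 5 bins. There, the noise SD was scaled from the median absolute difference between a bin and the average of the bins beside it. With 1 value per bin and unknown depth, no test was run. Members and lists were chosen with earlier results of these data known. Named genes were all Hox genes, Evx1 and Evx2, the 2 nearest genes on each side, those closest to the first bin at or under 0, the highest and lowest of each list, and members behind counts of 5 or fewer. Results for some items that this rule names are not reported here. The alternatives covered smoothing, the position of a gene, the threshold and the window. Only the finding of early runs and the noise SD were checked on simulated data, and the steps along a cluster were not. Python 3.11.15, numpy 2.4.6, pandas 2.3.3, scipy 1.17.1 and matplotlib 3.10.9 were used.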

Additional observations from a re-analysis of the deposited data

How the results depend on the processing

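No paired analysis was possible because the deposited table has 1 value per bin and none per library, so the fits with a replicate left out or as a block were not run either. An alternative kept a count or length if it stayed within 1.5 times, and a median if it stayed within 1 noise SD. It kept a share if this lay within its exact interval. Among 85 alternatives, 57 kept the value and 28 moved it. Only a median could be scored as turned, by a change of sign, and 0 were. Differences between clusters and steps along a cluster were not among the alternatives. Starts from RefSeq, chosen after seeing the data, changed the bin of 1 gene, Hoxc5, from 3.08 to 3.02. Each bin counted once gave 13 of 13 early bins. The lowest gene RT stayed above 0 under each way of placing the genes that was tried, and was 0.31 for Hoxd1 with positions read 1 bin to the left.

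The median RT over the Hox genes was 2.72 after a running median over 5 bins, 2.72 with positions read 1 bin to the left and 2.67 to the right. Under the same settings that of HoxA was 2.72, 2.72 and 2.81, and 2.81 with each bin counted once. HoxB had 2.66 with positions to the left, and HoxC had 2.88 after the running median and 2.67 with positions to the right. HoxD had 1.31 after the running median, 1.87 for the mean over the bins of a gene, 1.70 for the bin of the gene end, 1.70 with positions to the left, 1.31 to the right and 1.70 with each bin counted once. The early run of HoxD was 700 kb with the threshold at the median of all bins and 150 kb at RT 1. The share of early bins was 100% in a window of 500 kb and 60.2% in one of 2 Mb around HoxA, 100% with the median threshold and 100% in 500 kb around HoxC, and 81.4%, 30.4% and 78.3% around HoxD with the median threshold, 500 kb and 2 Mb. Early gene starts were 74.1% on the autosomes only and 69.2% with each bin counted once. A lower threshold can only lengthen a run or raise a share, by construction, and otherwise the cause was not tested. Features shorter than a bin cannot be seen in this profile.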

Other observations

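The Dlx genes, homeobox genes of the jaw, limb and forebrain, lie in convergent pairs on chromosomes that carry Hox clusters. Dlx1 and Dlx2, on chromosome 2 with HoxD, shared a bin with RT of 3.29. Dlx3 and Dlx4, on chromosome 11 with HoxB, shared a bin with RT of 3.22. Dlx5 and Dlx6, on chromosome 6 with HoxA, shared a bin with RT of -0.56, the only Dlx pair below 0. On chromosome 2 the Dlx pair was thus higher than every HoxD gene, and on chromosome 6 it was lower than every HoxA gene. The pairs are not equally near the clusters. Dlx3 and Dlx4 lie within the early run of HoxB, whereas Dlx5 starts at chr6:6882085 and the bins of HoxA begin at chr6:52150001.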
